A study of Mus musculus with 12 samples.

Results

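Regulated exocytosis releases the hormones of the pituitary, and 41 genes of this machinery were followed here in tumors of POMC KO mice and in normal mouse pituitary. They were chosen by name: membrane SNAREs, the proteins that regulate and take apart SNARE complexes, synaptotagmins, priming factors, the Rab3 and Rab27 GTPases with their effectors, and proteins of the vesicle and granule membrane. The platform annotation named 18193 genes alone on at least 1 probe set, and each of the 41 was among them. For every gene the probe set with the highest mean over the 12 arrays stood for it. All 41 members passed the filter on low values and were tested, out of 12305 genes tested.

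Hormone granules fuse with the cell surface when a SNARE on the granule zips together with SNAREs on the target membrane. Synaptotagmins sense the calcium that triggers fusion, priming factors make granules ready for release, and the GTPases Rab3 and Rab27 recruit effectors that tether granules to the plasma membrane. Pituitary endocrine cells share most of this machinery with neurons.

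The data were whole-genome expression arrays (Affymetrix mouse GeneChips) of total RNA from untreated mice. Tumor tissue that arose spontaneously in the pituitary came from mice with a heterozygous (8 arrays) or homozygous (2 arrays) knock-out of POMC, the gene for the precursor of ACTH and MSH, and 2 arrays held normal mouse pituitary, which the methods call pooled. Sex, age and strain of the mice behind the arrays are not in the labels. The deposited values were log2 signals, and every level below is on that scale.

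The tumor arrays came in close pairs by their numbers. Within each of the 5 pairs (heterozygous 1-2, 3-4, 5-6 and 7-8, homozygous 1-2), r across probe sets was 0.997 and at most 2 tested probe sets differed over 2-fold. Arrays of different heterozygous pairs had r of 0.964 to 0.983, with 368 to 828 such probe sets, and the 2 normal arrays had r of 0.986, with 242. The mean of each tumor pair was used as 1 sample, giving 4 heterozygous samples, 1 homozygous sample and 2 normal samples. Whether the 2 normal arrays are separate pools or 1 pool hybridised in duplicate is not stated. If they are 1 pool, every normal mean, SD and p-value below rests on a single normal sample and its technical spread. The p-values measure only the spread between these 7 samples, and the homozygous sample was assumed to vary like the others.

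The targeted gene was read first. Pomc stood at 15.08 and 15.11 in the normal samples and between 15.15 and 15.30 in the heterozygous samples, close to the highest value on any array, 15.31. In the homozygous sample it stood at 7.18, far under every other sample. Marker RNA of other pituitary cells and of macrophages differed as well. The summed linear signal of 5 gonadotroph markers was 40120 to 40310 in normal pituitary, 2191 to 15570 in heterozygous samples and 21180 in the homozygous sample. That of 5 thyrotroph markers was 7852 to 8289 in normal pituitary, 440.4 to 2029 in heterozygous samples and 3185 in the homozygous sample. That of 12 macrophage markers went the other way, from 1477 to 1756 in normal pituitary up to 5547 to 10290 in heterozygous samples and 4193 in the homozygous sample. The part of these cells in the results below was not tested, and in bulk tissue fewer cells of a type and less RNA per cell cannot be told apart.

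In heterozygous tumors the largest changes of the 41 members lay among the calcium sensors and the Rab3 and Rab27 group, and they went both ways. Syt7 was lower by 2.58-fold, Syt1 was higher by 1.93-fold and Sytl4 was lower by 1.93-fold. The mean of Rab3c was 2.37-fold lower, the widest difference after that of Syt7, but did not pass the test. At the thresholds of the study's methods (a fold change over 2 and an adjusted p under 0.05, here from limma with the Benjamini-Hochberg adjustment over all 24486 probe sets tested), 1 member was called, Syt7. That was 2.44% of the members, against 10.1% of all 12305 genes. At an adjusted p under 0.05 with no fold threshold 7 members were called, or 17.1%, against 24.2% of all genes. The 4 that rose (12.7% of all genes did) were Syt1, Syt5, Rab3d and Sytl2, and the 3 that fell (11.5% of all genes) were Syt7, Rab3b and Sytl4. Sytl2 passed the filter on low values through tumor arrays alone and so had to be higher in tumors. Without it 6 of 40 members were called, 3 of them higher. These 7 calls rested on both normal samples: none of the 7 was kept without normal 1, where Vamp3 was the 1 member called, and 1 was kept without normal 2, Syt7. Leaving out a heterozygous sample kept 2 to 5 of the 7. The median log2 difference of the 41 members was -0.05, with 19 above 0 and 22 under, and that of all genes was 0.00. The median absolute difference was 0.31 for the members and 0.26 for all genes.

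**Figure D1:**
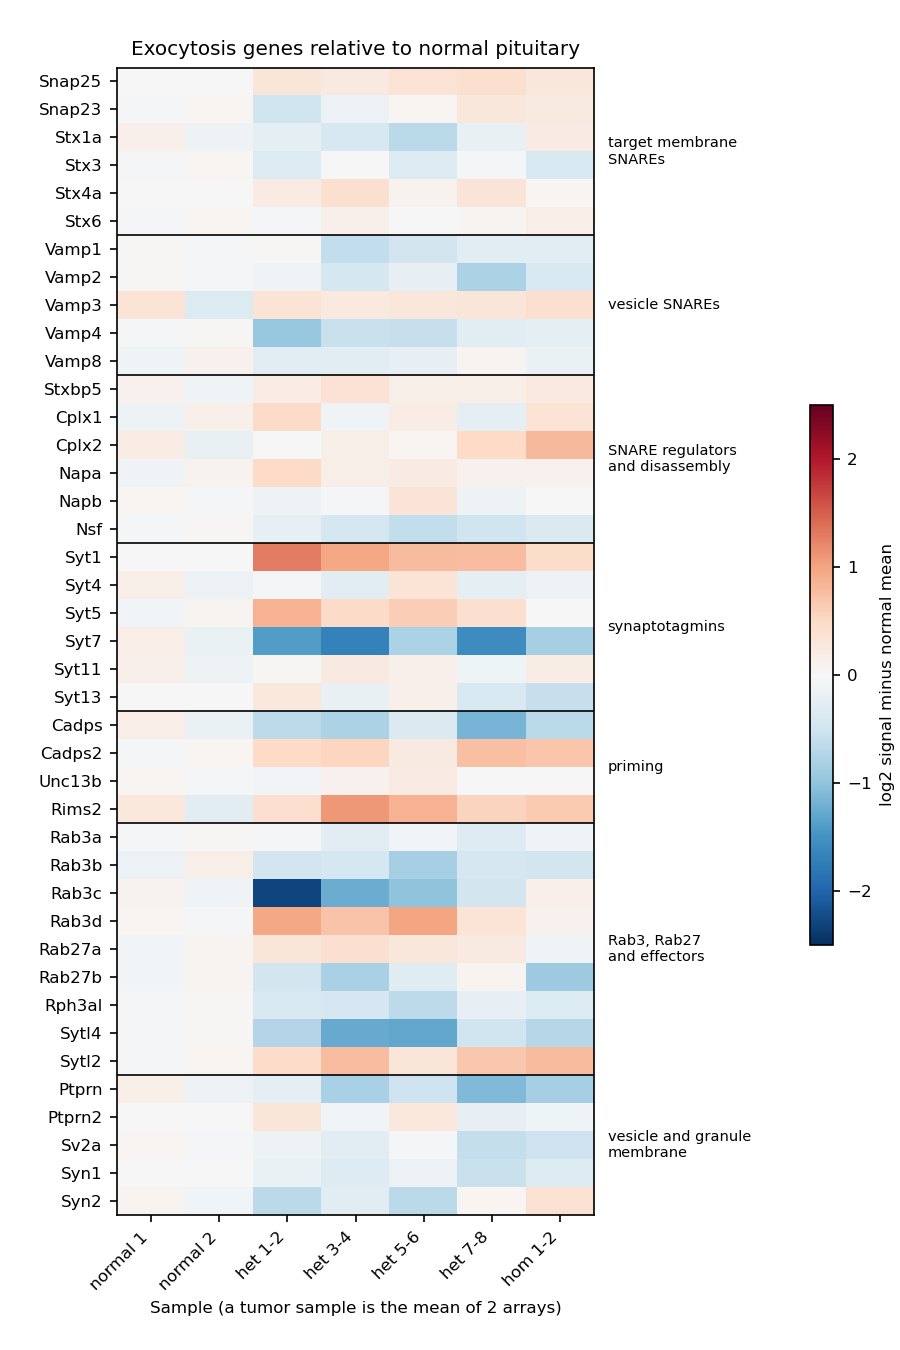
Heat map of the 41 members (rows, grouped by role) in the 7 samples (columns), with the log2 signal minus the mean of the 2 normal samples as colour. Red is above and blue is under normal pituitary. The deepest blue cell is Rab3c in heterozygous sample 1-2, and Syt7 is blue in all 5 tumor samples.

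The promoters of the called members are shown so that their sequence can be read beside their direction. They are the 250 bases before the annotated start in RefSeq (GRCm38.p6), written 5′ to 3′ on the gene's strand, with each GC box in capitals. The GC box, the site bound by Sp1 family factors, was searched as GGGCGG on both strands, so that CCGCCC marks it on the other strand. Syt1 (chr10:109010976-109011225, minus strand) and Rab3d (chr9:21918184-21918433, minus strand) rose, and Rab3b (chr4:108878820-108879069, plus strand) and Sytl4 (chrX:133981813-133982062, minus strand) fell. Syt1 has 2 listed starts, of which the one with the coordinates given is printed. The table did not list Syt5, Syt7 and Sytl2.
Syt1: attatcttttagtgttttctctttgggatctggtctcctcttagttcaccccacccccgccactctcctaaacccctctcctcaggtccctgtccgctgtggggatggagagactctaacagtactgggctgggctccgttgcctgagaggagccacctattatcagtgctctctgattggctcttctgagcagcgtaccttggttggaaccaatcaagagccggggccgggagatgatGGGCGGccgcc
Rab3d: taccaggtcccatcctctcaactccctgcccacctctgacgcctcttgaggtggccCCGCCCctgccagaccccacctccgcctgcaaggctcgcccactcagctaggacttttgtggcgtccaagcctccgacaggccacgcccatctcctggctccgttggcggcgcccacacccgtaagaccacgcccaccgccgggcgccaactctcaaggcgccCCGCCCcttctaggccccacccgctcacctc
Rab3b: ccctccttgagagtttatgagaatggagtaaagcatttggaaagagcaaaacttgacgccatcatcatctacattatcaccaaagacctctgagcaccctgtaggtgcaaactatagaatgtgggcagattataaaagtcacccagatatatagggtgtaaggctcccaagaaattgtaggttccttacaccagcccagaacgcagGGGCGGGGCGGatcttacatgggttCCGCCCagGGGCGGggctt
Sytl4: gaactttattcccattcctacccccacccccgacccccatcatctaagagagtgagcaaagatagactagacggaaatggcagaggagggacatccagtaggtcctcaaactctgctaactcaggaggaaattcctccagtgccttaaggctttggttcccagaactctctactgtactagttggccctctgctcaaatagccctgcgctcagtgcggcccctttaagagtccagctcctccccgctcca
Syt1 held 1 GC box, Rab3d held 2, Rab3b held 4 and Sytl4 held 0, so that the members that rose held 1 and 2 and those that fell held 4 and 0. In Rab3b the first pair of boxes shares 1 base. Over the 31 members in the table, with 37 promoters, 22 promoters (59.5%) held a GC box, against 32.7% of all 32851 promoters of that length. The median GC content was 59.6% for the members' promoters and 52.4% for all. A TATA box, searched as TATAAA, was in 2 member promoters (5.4%), those of Rab3b and Stx3, against 12.4% of all. The cAMP response element TGACGTCA was in 1, that of Syn1 (2.7%, against 1.55%). The E-box CAGATG was also in 1, that of Syn2 (2.7%, against 14.4%). These matches are letters in a window, and no binding was measured.

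Synaptotagmins held the 2 members furthest from normal by adjusted p. Syt1, the fast calcium sensor of vesicle fusion, stood at 11.34 and 11.32 in the normal samples, at 12.61, 12.29, 12.12 and 12.10 in heterozygous samples 1-2, 3-4, 5-6 and 7-8, and at 11.80 in the homozygous sample. Every heterozygous sample was above both normal samples, and the homozygous sample lay between the groups. The heterozygous mean was 12.28 ± 0.23 (SD, n = 4) and the normal mean 11.33 ± 0.01 (SD, n = 2), a log2 difference of 0.95 (SE 0.16, limma adjusted p = 0.00702). With either normal sample left out the adjusted p was 0.0558 (without normal 1) or 0.0546 (without normal 2).

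Syt7, a slower calcium sensor with high calcium affinity that acts in hormone granules, went the other way. It stood at 10.04 and 9.72 in the normal samples, at 8.48, 8.18, 9.08 and 8.30 in the heterozygous samples in the same order, and at 9.05 in the homozygous sample. All 5 tumor samples were under both normal samples. The heterozygous mean was 8.51 ± 0.40 (SD, n = 4) against 9.88 ± 0.22 (SD, n = 2), a log2 difference of -1.37 (SE 0.25, limma adjusted p = 0.00902). Without normal 1 the adjusted p was 0.0830, and no member was then called at the fold threshold.

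Syt5, a calcium sensor of dense-core vesicles, stood at 7.01 and 7.15 in normal pituitary, at 7.96, 7.55, 7.69 and 7.48 in the heterozygous samples and at 7.08 in the homozygous sample. The heterozygous samples were all above the others, and the homozygous sample sat between the 2 normal values. The heterozygous difference was 0.59 (SE 0.16, limma adjusted p = 0.0335). The call was lost without normal 1 (adjusted p = 0.188), without normal 2 (0.106), without heterozygous 3-4 (0.0575) and without heterozygous 5-6 (0.0632).

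The other 3 synaptotagmins were not called. Syt4, which is carried on granules and lacks a full calcium-binding site in its first C2 domain, differed by -0.05 (adjusted p = 0.884), Syt11 by 0.07 (0.759) and Syt13 by -0.05 (0.887). Syt11 and Syt13 are family members that do not bind calcium in the manner of Syt1. Syt13 stood at 10.01 and 9.98 in normal pituitary and at 9.43 in the homozygous sample, the lowest of all 7 samples. The homozygous difference was -0.57 (SE 0.27) and was not called. On the other tested Syt13 probe set the homozygous sample (8.01) lay between the normal samples (7.87 and 8.25). The heterozygous difference there was 0.44 (limma adjusted p = 0.203).

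**Figure D2:**
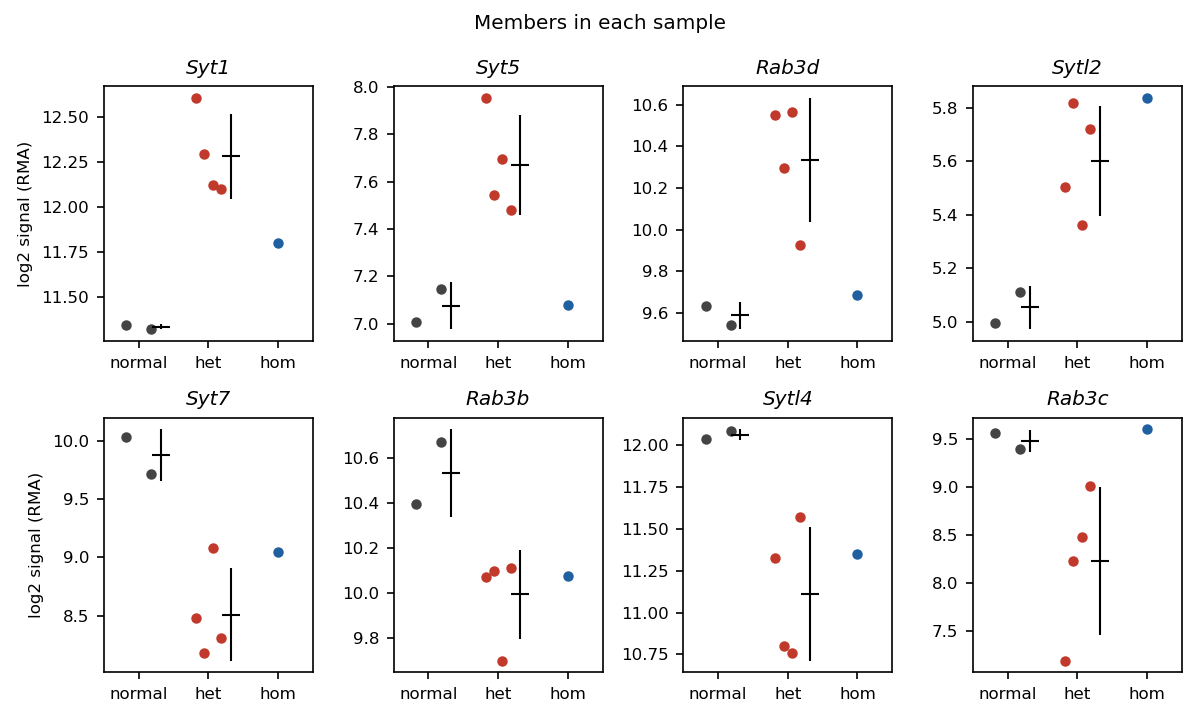
Log2 signal of the 7 members called in heterozygous tumors at an adjusted p under 0.05, and of Rab3c, which was not called. Each point is 1 sample (2 normal, 4 heterozygous, 1 homozygous), the horizontal mark is the group mean and the bar the SD, and each panel has its own axis. Heterozygous and normal points do not overlap in any panel.

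Among the Rab3 GTPases, which sit on secretory vesicles and control their docking and release, the paralogs differed in direction. Rab3d, common in endocrine and exocrine granules, stood at 9.63 and 9.54 in normal pituitary, at 10.55, 10.30, 10.57 and 9.93 in the heterozygous samples and at 9.69 in the homozygous sample. It rose in the heterozygous tumors by 0.75 (SE 0.19, limma adjusted p = 0.0321), while the homozygous difference was 0.10 (SE 0.27, 0.890). Heterozygous sample 7-8 lay nearest to normal. The call was lost without normal 1 (0.131), normal 2 (0.158), heterozygous 1-2 (0.0643), 3-4 (0.0682) or 5-6 (0.0592).

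Rab3b, another form found in pituitary cells, stood at 10.39 and 10.67 in normal pituitary, at 10.07, 10.09, 9.70 and 10.11 in the heterozygous samples and at 10.08 in the homozygous sample. All tumor samples were under both normal samples. The heterozygous difference was -0.54 (SE 0.16, limma adjusted p = 0.0494) and the homozygous difference -0.46 (SE 0.23, 0.344). Of 20 alternative settings the heterozygous call held in 12. Some of these settings could not change the call, as described at the end. It was lost without normal 1 (0.100) or 2 (0.261), without heterozygous 1-2 (0.0729), 3-4 (0.0837), 5-6 (0.0615) or 7-8 (0.0555), with no filter (0.0540) and with housekeeping centring (0.0521).

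Rab3a, the main neuronal form, differed by -0.17 in heterozygous tumors (adjusted p = 0.363). Rab3c had the widest spread of all members. It stood at 9.56 and 9.40 in normal pituitary, at 7.19, 8.24, 8.48 and 9.02 in heterozygous samples 1-2, 3-4, 5-6 and 7-8, and at 9.61 in the homozygous sample. The heterozygous samples were all under the normal ones but covered 1.82 on the log2 scale, whereas 2 arrays of a pair differed by 0.11 at most. The heterozygous difference was -1.25 (SE 0.44, limma adjusted p = 0.0813), a 2.37-fold lower mean that did not pass. It passed with the 12 arrays taken as separate samples (adjusted p = 0.0399) and with Xist entered as a covariate (-1.67, 0.0308), and it also passed without heterozygous 1-2 (-0.90, 0.0476) or 7-8 (-1.51, 0.0286). Its 2 dimmer tested probe sets differed by -0.47 and -0.41 (adjusted p 0.345 and 0.524). On these the homozygous sample (9.03 and 8.56) was above both normal samples (8.52 and 8.33, and 7.95 in both). Heterozygous sample 7-8 (8.49 and 8.18) was not under both normal samples on either.

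The order of the samples for Rab3c was also that of the gonadotroph and thyrotroph sums, 2 of the 12 marker lists summed. The summed gonadotroph signal was 2191, 4911, 9769 and 15570 in heterozygous samples 1-2, 3-4, 5-6 and 7-8, and the summed thyrotroph signal was 440.4, 628.7, 915.9 and 2029. Rab3c was ordered in the same way over these 4 samples. The homozygous sample came next for both sums, at 21180 and 3185. Its Rab3c level, on the probe set that stood for the gene, was like that of the normal samples, whose sums were higher still. Whether the markers' cells account for the Rab3c signal was not tested, and this order was looked for after the values were seen. The same order of the 4 heterozygous samples was found in 2 of the 41 members (4.88%), Rab3c and Snap23, in 16 of 108 other genes of the pathway (14.8%) and in 6.5% of all genes. The sums of the other 10 lists, among them somatotroph, lactotroph and macrophage markers, did not have it.

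**Figure D3:**
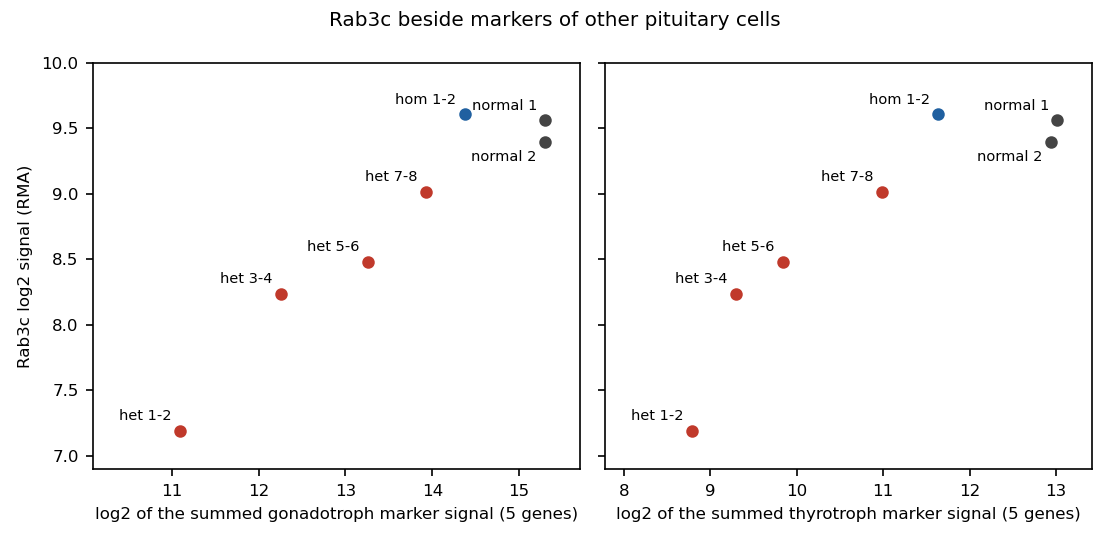
Rab3c log2 signal (vertical axis) against the log2 of the summed signal of 5 gonadotroph markers (left) and 5 thyrotroph markers (right) in the 7 samples, each point 1 sample coloured by genotype. The 4 heterozygous samples climb in the same order on both axes, from 7.19 to 9.02 for Rab3c.

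Rab27a and Rab27b, which hold granules at the cell cortex through their effectors, were not called. Rab27a stood at 10.56 and 10.69 in normal pituitary, at 10.94, 11.04, 10.90 and 10.84 in the heterozygous samples and at 10.53 in the homozygous sample. The heterozygous samples were above the other 3 samples by a small margin (0.30, SE 0.11, adjusted p = 0.0924). Rab27b stood at 9.997 and 10.12, at 9.59, 9.25, 9.76 and 10.14, and at 9.15, in the same order. Its lowest value was in the homozygous sample, with a difference from normal of -0.91 (SE 0.32, limma adjusted p = 0.197).

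Of the Rab effectors, Sytl4, known as granuphilin, which docks granules through Rab27 and syntaxin, stood at 12.04 and 12.08 in normal pituitary, at 11.32, 10.80, 10.76 and 11.57 in the heterozygous samples and at 11.35 in the homozygous sample. Every tumor sample was under both normal samples. The heterozygous difference was -0.95 (SE 0.24, limma adjusted p = 0.0302) and the homozygous difference -0.71 (SE 0.34, 0.331). The heterozygous call was lost without normal 1 (0.139), normal 2 (0.142), heterozygous 3-4 (0.0657) or 5-6 (0.0506).

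Sytl2, another Rab27 effector, was a dim gene that passed the filter through tumor arrays alone. It stood at 4.996 and 5.11 in normal pituitary, at 5.51, 5.82, 5.36 and 5.72 in the heterozygous samples and at 5.84 in the homozygous sample, with 4 of 12 arrays reaching the overall median signal of 5.74. A gene that passed in this way had to be higher in tumors. The heterozygous difference was 0.55 (SE 0.15, limma adjusted p = 0.0409), the homozygous one 0.79 (SE 0.22, 0.114), and the heterozygous call held in 11 of 19 alternative settings. It was lost without normal 1 (0.207) or 2 (0.125) and without heterozygous 1-2 (0.0585), 3-4 (0.0903) or 7-8 (0.0702). With all samples kept it was lost with the pair as a random block (0.107), with trend and robust variance (0.0625) and with the Xist covariate described further on. Some of the 19 settings could not change the call, as described at the end. Rph3al, known as Noc2, an effector of both GTPase families in endocrine cells, differed by -0.42 (SE 0.14, adjusted p = 0.0721), with all 4 heterozygous samples under normal. It passed without heterozygous 7-8 (adjusted p = 0.0437), and also with the 12 arrays as separate samples or the pair as a random block.

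The 11 SNAREs differed from normal by -0.59 to 0.31 in heterozygous tumors, with a median absolute difference of 0.30 against 0.26 for all genes. None of the 6 target membrane SNAREs and none of the 5 vesicle SNAREs was called in limma at either threshold, where 10.1% and 24.2% of all genes were called. At an unadjusted p under 0.05 Snap25 (higher) and Vamp4 (lower) passed. The methods' one-way test over the 3 genotypes on the 12 arrays counts both arrays of a pair. It also called none of the 11 past the fold threshold. At its adjusted p alone, which does not single out the heterozygous difference, it called Snap25 (0.00485) and Stx1a (0.0368). Snap25, the plasma membrane SNARE of neurons and endocrine cells, stood at 11.99 and 12.01 in normal pituitary, at 12.30, 12.22, 12.34 and 12.41 in the heterozygous samples and at 12.29 in the homozygous sample. All tumor samples were above normal by a narrow margin (0.31, SE 0.11, adjusted p = 0.0750). Snap25 passed in 7 of 20 alternative settings (adjusted p 0.00485 to 0.0496), the replicate block described at the end among them. Vamp4, a SNARE of the trans-Golgi network and immature granules, stood at 11.18 and 11.23, at 10.25, 10.64, 10.62 and 10.94, and at 10.95. It was under normal in every tumor sample (-0.59, SE 0.18, adjusted p = 0.0572 in heterozygous tumors), and passed without heterozygous 7-8 (0.0224). On the same probe set it also passed in 6 settings that kept all samples, the replicate block described at the end among them.

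The remaining target membrane SNAREs differed in heterozygous tumors by -0.37 to 0.25: Stx1a, the neuronal syntaxin, was at the low end, and Stx4a, a plasma membrane syntaxin of most cells, at the high end. Stx1a stood at 7.67 and 7.42 in normal pituitary, at 7.30, 7.16, 6.87 and 7.37 in the heterozygous samples and at 7.75 in the homozygous sample. Its heterozygous samples were under all others. Its probe set, like those standing for Stx6 and Rab3a, is of a type that can also bind transcripts of other genes. On the other tested Stx1a probe set the homozygous sample stood at 6.02, under both normal samples (6.63 and 6.80). The heterozygous difference there was -0.45 (limma adjusted p = 0.128). Of the vesicle SNAREs, Vamp2, the main synaptobrevin of regulated secretion, differed by -0.38 (SE 0.20, adjusted p = 0.214), Vamp1 by -0.32 (0.252) and Vamp8, a SNARE of late compartments and secretory granules in exocrine cells, by -0.16 (0.427). The other tested Vamp2 probe set differed by 0.39 (adjusted p = 0.359). The median over the vesicle SNAREs was -0.32 and that over the target membrane SNAREs -0.02.

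Of the 6 SNARE regulators and disassembly factors none was called in limma, against the same 10.1% and 24.2% of all genes. Nsf, the ATPase that takes SNARE complexes apart, stood at 10.18 and 10.23 in normal pituitary, at 10.005, 9.77, 9.60 and 9.70 in the heterozygous samples and at 9.83 in the homozygous sample. On the probe set that stood for Nsf every tumor sample was under normal (heterozygous difference -0.44, SE 0.14, adjusted p = 0.0599). The other tested Nsf probe set differed by only -0.18 in heterozygous tumors (limma adjusted p = 0.379). There a heterozygous sample (9.08) was above the lower normal sample (9.02), so the groups overlapped. The passes that follow are those of the probe set that stood for Nsf. Nsf passed without heterozygous 1-2 (0.0274), after repeated quantile normalization (0.0474), with trend and robust variance (0.0431), with the 12 arrays as separate samples (0.0103) or the pair as a random block (0.0150), and in the methods' one-way test (0.0398). Its adaptors Napa and Napb, the SNAP proteins, differed by 0.24 (0.264) and 0.01 (0.978). The complexins, which clamp and promote fusion, differed by 0.09 for Cplx1 (0.803) and 0.17 for Cplx2 (0.519). Stxbp5, the tomosyn that holds syntaxin and SNAP-25 away from vesicle SNAREs, differed by 0.21 (0.263). The one-way test, over the 3 genotypes and with both arrays of a pair counted, called Cplx2 at 0.0225. On the probe set that stood for it, Cplx2 was 0.82 above normal in the homozygous sample.

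Priming factors came close to the threshold in opposite directions. Cadps, the CAPS1 protein that primes dense-core granules, stood at 9.53 and 9.19 in normal pituitary, at 8.70, 8.56, 8.996 and 8.18 in the heterozygous samples and at 8.68 in the homozygous sample. Its relative Cadps2 stood at 10.32 and 10.42, at 10.86, 10.91, 10.60 and 11.12, and at 11.06, in the same order. All tumor samples were under normal for Cadps and above normal for Cadps2. The heterozygous differences were -0.75 (SE 0.22, limma adjusted p = 0.0512) and 0.50 (SE 0.16, 0.0566), and both passed without heterozygous 5-6 (0.0257 and 0.0259). Both also passed in settings that kept all samples, among them trend and robust variance, the 12 arrays as separate samples and the pair as a random block.

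Rims2, an active zone protein that binds Rab3, stood at 8.73 and 8.22 in normal pituitary, at 8.89, 9.56, 9.35 and 9.02 in the heterozygous samples and at 9.13 in the homozygous sample. On this probe set the tumors were all above normal, but the normal samples differed from each other by 0.51. The heterozygous difference was 0.73 (SE 0.23, adjusted p = 0.0570, or 0.0477 without heterozygous 1-2). The other tested Rims2 probe sets differed by only 0.13 and 0.18 (limma adjusted p 0.528 and 0.552). Unc13b, a Munc13 priming protein, differed by 0.06 (SE 0.12, adjusted p = 0.752).

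Of the membrane proteins of vesicles and granules, Ptprn, the granule protein IA-2, was lower in every tumor sample but not called. It stood at 11.58 and 11.30 in normal pituitary, at 11.21, 10.63, 10.92 and 10.33 in the heterozygous samples and at 10.61 in the homozygous sample. The heterozygous difference was -0.67 (SE 0.24, adjusted p = 0.0873, or 0.0396 without heterozygous 1-2) and the homozygous difference -0.83 (SE 0.34, 0.254). Its relative Ptprn2, known as phogrin, differed by 0.07 (0.810). Sv2a, a vesicle transporter-like glycoprotein, differed by -0.26 (0.316), and the synapsins Syn1 and Syn2, which tether synaptic vesicles, by -0.29 (0.178) and -0.39 (0.231).

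Counted over the 41 members, the heterozygous samples lay wholly above the normal ones in 11 and wholly under them in 13, against 25.4% and 25.6% of all genes, and the samples overlapped in 17. At an unadjusted p under 0.05 there were 17 members, or 41.5%, against 39.1% of all genes. Members were therefore past this limit about as often as genes in general. Sytl2 is in these counts, and without it 10 of 40 lay wholly above normal and 16 (40.0%) were past the unadjusted limit.

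**Figure D4:**
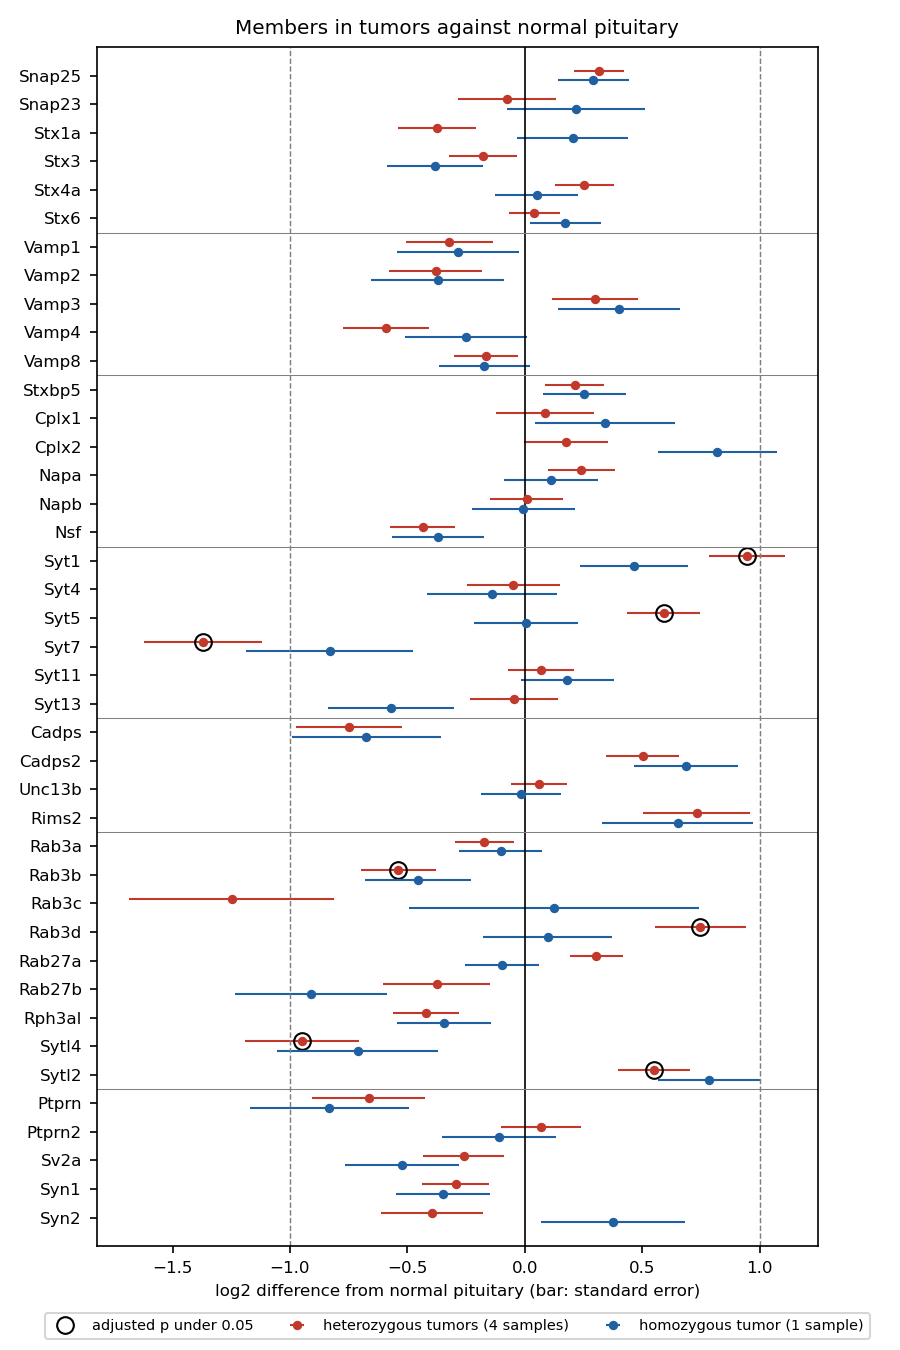
Log2 difference from normal pituitary for each of the 41 members, in heterozygous (red) and homozygous (blue) tumors, with the standard error of the limma fit as bars and rings around differences with an adjusted p under 0.05. Dashed lines mark a 2-fold change. The 7 rings are all on heterozygous differences, and only that of Syt7 lies beyond a dashed line.

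In the homozygous tumor no member was called against normal pituitary, with or without the fold threshold, where 2.73% and 3.18% of all genes were called. The methods' one-way test on the 12 arrays called 0 at the fold threshold. At an unadjusted p under 0.05 there were 5 members (12.2%, against 19.2% of all genes): Cplx2, Cadps2 and Sytl2 higher, Rab27b and Ptprn lower. The median difference was -0.01 over the members and -0.03 over all genes, and the median absolute difference 0.34 and 0.23. Cplx2, a complexin, stood at 9.54 and 9.17 in normal pituitary, at 9.37, 9.49, 9.40 and 9.85 in the heterozygous samples and at 10.17 in the homozygous sample. On this probe set it was highest in the homozygous sample, 0.82 above normal (SE 0.25), and was not called. The other tested Cplx2 probe sets differed from normal by only 0.24 and 0.20 in the homozygous sample. On the latter, heterozygous sample 1-2 (8.49) was above the homozygous sample (8.36).

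With 1 homozygous sample, the standard error of a homozygous difference was larger than that of a heterozygous one, with a median of 0.24 over the members against 0.17. Both comparisons also share the 2 normal samples, so their values are given side by side. Syt7 differed by -1.37 in heterozygous and -0.83 in homozygous tumors, Sytl4 by -0.95 and -0.71, Rab3b by -0.54 and -0.46, and Sytl2 by 0.55 and 0.79. Syt1 differed by 0.95 and 0.46, Rab3d by 0.75 and 0.10, and Syt5 by 0.59 and 0.00.

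The direct comparison of homozygous with heterozygous tumors also called no member, where 0.276% of all genes were called at either threshold, and the methods' one-way test called 0 at the fold threshold. At an unadjusted p under 0.05 there were 7 members (17.1%, against 10.6% of all genes). Stx1a was 0.58 higher in the homozygous sample on the probe set that stood for it, but its other tested probe set differed by -0.24. Cplx2, Rab3c and Syn2 were also higher in the homozygous sample, and Syt5, Rab3d and Rab27a lower. The widest of these was Rab3c, 1.37 higher (SE 0.56, limma adjusted p = 0.516). Syn2 was 0.77 higher (SE 0.28, 0.445), Rab3d 0.65 lower (log2 difference -0.65, SE 0.25, 0.485) and Syt5 0.59 lower (log2 difference -0.59, SE 0.20, 0.414). These differences were not detectable in the limma fit over the 7 samples. The fit that took the 12 arrays as separate samples, so that both arrays of a pair counted, called 6 members at the adjusted p alone (Stx1a, Syt5, Cplx2, Rab3d, Rab27a and Syn2). That fit also called more of all tested probe sets at the fold threshold, 2.03%. Its share at the adjusted p alone is not given. In the fit with the replicate number as a block the heterozygous group rested on arrays 1 and 2 alone, so its calls are not given.

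The members had 115 probe sets in all, of which 97 were tested, and 27 members had several tested. Over these probe sets the fold and p thresholds called 5 as higher and 2 as lower in heterozygous tumors, against 4.91% and 3.77% of all probe sets tested. Syt1 gave 3 of the 5 higher ones. Its dimmer probe sets rose by 1.62, 1.91 and 2.00 (limma adjusted p 0.00887, 0.00387 and 0.00464), so that all 4 tested Syt1 probe sets passed the p threshold and the brightest gave the smallest difference. For Syt7 a second probe set fell by 1.54 (log2 difference -1.54, 0.00292), and the third differed by -0.46 (0.488).

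The probe sets of Syt4 disagreed. The brighter one differed by -0.05 (adjusted p = 0.884), whereas the other stood at 9.99 and 9.60 in normal pituitary, at 11.27, 10.62, 11.70 and 10.56 in the heterozygous samples and at 11.27 in the homozygous sample. Every tumor sample was above normal on that probe set, with a heterozygous difference of 1.24 (SE 0.33, limma adjusted p = 0.0341). Which transcripts each probe set detects was not examined. For Rab27a the dimmer probe sets rose by 1.08 (0.00539) and 0.91 (0.0120), where the brightest differed by 0.30. All 3 tested probe sets of Rab3d were called at the p threshold alone, at 0.75, 0.86 and 0.92.

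A probe set of Vamp3, a SNARE of recycling endosomes and constitutive secretion, was the single member probe set called in homozygous tumors against normal (1.26% of all probe sets were called as higher). It stood at 7.93 and 7.95 in normal pituitary, at 8.88, 8.60, 8.76 and 8.82 in the heterozygous samples and at 9.004 in the homozygous sample. All tumor samples were above normal, by 0.83 in heterozygous tumors (SE 0.12, limma adjusted p = 0.00346) and 1.06 in the homozygous tumor (SE 0.17, 0.0270). The probe set that stood for Vamp3 differed by 0.30 (0.284) in heterozygous tumors, and its 2 normal samples were 0.68 apart. Without normal 1, the higher of these 2, it passed (0.64, 0.0447). Dimmer probe sets of Napb (0.94, 0.0246), Vamp4 (-0.45, 0.0479), Stx3 (-0.74, 0.0136) and Syn2 (-0.91, 0.0499, and -0.88, 0.0191) passed the p threshold where the brightest did not. These calls of dimmer probe sets were not run again without single samples.

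**Figure D5:**
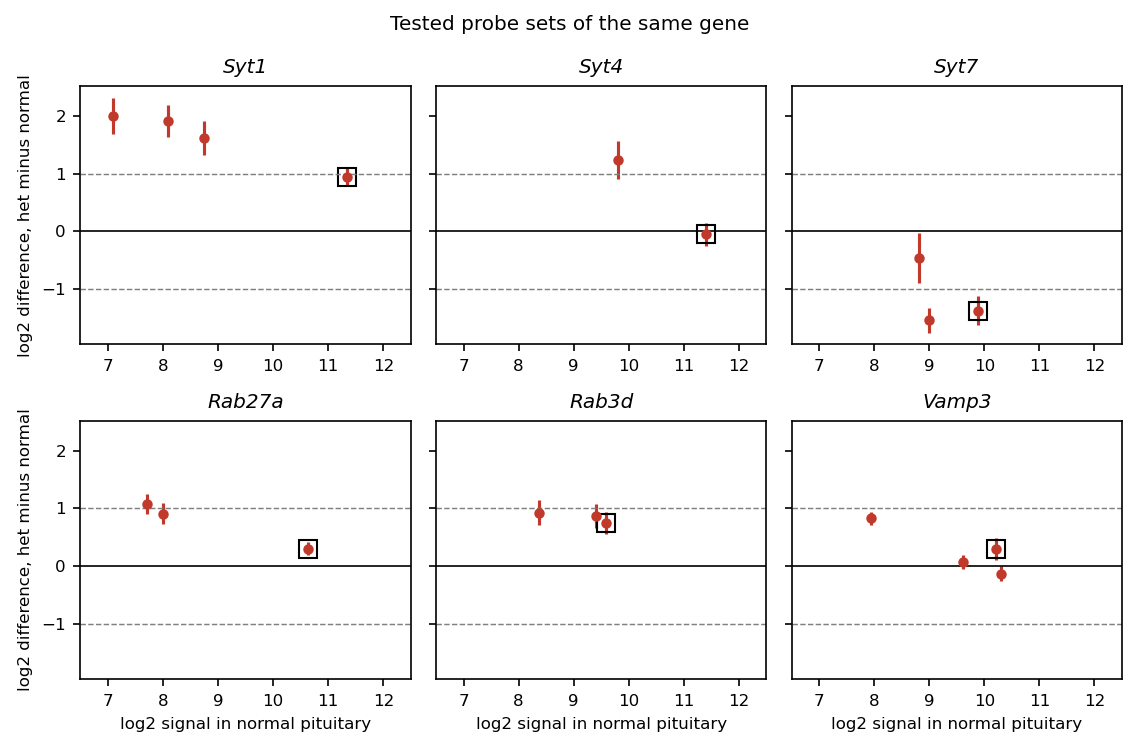
Log2 difference between heterozygous tumors and normal pituitary (vertical axis, bars are standard errors) against the log2 signal in normal pituitary (horizontal axis) for each tested probe set of 6 members. The square marks the probe set that stood for the gene, and dashed lines mark a 2-fold change. In Syt1, Syt4 and Rab27a the square is the brightest probe set and has the smallest difference from 0.

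The 4 heterozygous samples differed from each other by more than the arrays of a pair. The range over the 4 samples had a median of 0.50 over the members and exceeded the largest difference within any pair in 39 of 41, and the largest difference within a pair had a median of 0.11. The samples also differed in Xist, the RNA of the inactive X chromosome. It stood at 4.58 and 5.0 in heterozygous samples 1-2 and 5-6, at 10.93 and 11.25 in 3-4 and 7-8, at 11.20 in the homozygous sample and at 5.07 and 4.57 in normal pituitary. In 14 members (34.1%, against 19.9% of all genes) both samples with low Xist were above both with high Xist, among them Syt5, Syt7, Rab3a, Rab3d, Ptprn, Ptprn2, Sv2a and Syn1. In 9 (22.0%, against 22.2%) the order was turned, among them Rab3b, Cadps2 and Syn2. This is a description of 4 samples, made after the values were seen.

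The homozygous sample had high Xist and both normal samples low, so Xist and genotype moved together in that comparison. With Xist entered as a covariate, the heterozygous difference was 1.04 for Syt1 (limma adjusted p = 0.00945), -1.12 for Syt7 (0.0179), 0.97 for Rab3d (0.00694) and 0.75 for Syt5 (0.0115). It was -1.02 for Sytl4 (0.0469) and -0.63 for Rab3b (0.0457), whereas Sytl2 no longer passed (0.39, 0.0877).

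Other genes of the pathway, listed by role, were called in heterozygous tumors as follows, beside 10.1% of all genes past the fold and p thresholds and 24.2% at the p threshold alone. The lists are short, and no list was compared with all genes by a test. Among 18 priming and active zone proteins tested, Baiap3, a Munc13-like protein of dense-core vesicles, rose by 1.30 (SE 0.22, limma adjusted p = 0.00690), and Erc2 and Rimbp2, scaffolds of the active zone, fell by 2.41 (0.00255) and 1.15 (0.00118) on the log2 scale. Erc2 stood at 9.01 and 8.78 in normal pituitary, at 5.93, 6.20, 6.63 and 7.18 in the heterozygous samples and at 7.09 in the homozygous sample.

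Among 18 further membrane proteins of vesicles and granules, 1 rose and 1 fell past the fold threshold. Sv2b, a relative of Sv2a, rose by 1.004 (SE 0.15, adjusted p = 0.00410). Syngr1, a vesicle protein of the synaptogyrin family, stood at 8.67 and 8.69 in normal pituitary, at 6.26, 6.52, 6.71 and 7.12 in the heterozygous samples and at 8.03 in the homozygous sample. It fell by 2.03 on the log2 scale (SE 0.22, adjusted p = 0.00122). At the p threshold alone 2 rose and 4 fell, with Syp, the vesicle marker synaptophysin, at -0.86 (0.0228). Another of the 4, Syn3, passed the filter through the normal arrays alone (5.93 and 6.23, and 5.56 or less in every tumor sample), so it had to be lower in tumors and is no support for a fall.

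Among 13 genes listed as SNARE regulators 1 rose past the fold threshold, Stxbp6, known as amisyn, by 1.31 (SE 0.23, adjusted p = 0.00755). Nrbp1 fell at the p threshold alone, and its role as a SNARE regulator was not established here. Among 22 other SNAREs none passed the fold threshold, and Snap47, Vamp5 and Gosr2 fell at the p threshold alone by 0.38 to 0.52 on the log2 scale. Of 10 other synaptotagmins and C2 domain proteins, Sytl1 rose (0.73, 0.0232) and Syt12 fell (-0.94, 0.00741) at the p threshold alone. None of 18 regulators of Rab and granule transport passed at either. Of 9 subunits of the exocyst, the complex that tethers vesicles to the plasma membrane, Exoc6 and Exoc6b fell at the p threshold alone. In the homozygous tumor 1 gene of these 7 lists was called, at the p threshold alone: Exoc6b fell by 0.89 on the log2 scale (SE 0.14, limma adjusted p = 0.0299).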

How the data were processed

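Affymetrix mouse expression arrays of 8 heterozygous, 2 homozygous and 2 normal pituitary samples were analysed. The authors deposited RMA-normalized log2 signals, and the submitters' processing notes name Affymetrix Expression Console and RMA (the paper's methods name GeneSpring GX). Of 45101 probe sets, 34945 had 1 gene symbol in the platform annotation, 932 several and 9160 none, and 64 were control probe sets. A probe set was tested when at least 2 of 12 arrays reached the median of all values (5.74), which left 24486. The highest mean over the 12 arrays chose the probe set of a gene.

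Arrays of a tumor pair were averaged because they were alike. A limma fit (version 3.58.1, R 4.3.3) over the 7 samples, with 4 residual degrees of freedom, gave all comparisons. The p-values were adjusted by Benjamini-Hochberg over all tested probe sets. Its code was tested on simulated data. Samples were grouped by title, and the titles' replicate numbers were not taken as a pairing of groups: deviations of samples sharing a number correlated at -0.02, -0.003 and 0.07. The number of arrays limits the precision.

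The members and gene lists were chosen with earlier results of these data known. All members may be named, and of the other lists those past a threshold. Alternatives changed the filter, normalization, unit of replication, threshold, variance model, test, probe set and Xist covariate, and left out samples. The second brightest probe set was an alternative chosen after seeing the data, as were the counts of samples ordered by Xist and the order of Rab3c beside the markers.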

Additional observations from a re-analysis of the deposited data

Results flagged for a closer look

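Over the 4 heterozygous samples, 2 of the 41 members had 1 sample that stood apart from the other 3 by Dixon's test, and chance flags about 1 in 20 groups. Vamp8 stood at 10.88 in heterozygous sample 7-8, where the nearest of the others was at 10.62, a gap of 0.834 of the group's range. Rab3b stood at 9.70 in heterozygous sample 5-6, where the nearest was at 10.07, a gap of 0.902 of the range. No member was called between homozygous and heterozygous tumors at the thresholds used.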

How the results depend on the processing

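With 1 member called in heterozygous tumors against normal (Syt7), the count was 2 after repeated quantile normalization (Syt7 and Sytl4), 2 with housekeeping centring (Syt1 and Syt7), 2 with the 12 arrays as separate samples or with the pair as a random block (Syt7 and Rab3c), and 2 with the mean of a gene's probe sets (Syt1 and Syt7). It was 4 with Xist as a covariate (Syt1, Syt7, Rab3c and Sytl4) and 7 at the adjusted p alone. With the second brightest probe set, an alternative chosen after seeing the data, it was 2 (Syt1 and Syt4), Syt7 was lost and Syt4 turned from -0.05 to 1.24. Leaving out samples gave counts from 0 (without normal 1) to 4 (without heterozygous 7-8). The other alternatives, apart from the replicate block described next, left it at 1.

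With the replicate number as a block on the 12 arrays, where the numbers share nothing else known, 3 members were called in heterozygous tumors (Syt1, Syt7 and Rab3c) and 2 between genotypes (Rab3c and Syn2). No other setting called a member between genotypes at the fold threshold, and none called a member in the homozygous tumor against normal. The causes were not tested. All 7 members called at the adjusted p kept their sign in each alternative, with calls kept in 18 of 20 for Syt1 and Syt7, 16 for Syt5 and Sytl4 and 15 for Rab3d. Some settings could not change these calls. The adjusted p alone and the fits without a homozygous array repeat the heterozygous values of the main fit. So does the second brightest probe set for Syt5, Rab3b, Sytl4 and Sytl2, which had 1 tested probe set each. Housekeeping centring moved the median of all probe sets between genotypes from -0.02 to -0.11. The share of all tested probe sets past the fold threshold moved with the setting too. In heterozygous tumors it was 8.68% over the 7 samples and 9.06% with the 12 arrays as separate samples. The latter setting gave 4.91% in the homozygous tumor against normal and 2.03% between genotypes. Such shares at the adjusted p alone are not given for the alternative settings. The member counts that follow can therefore not be set against genes in general. At the adjusted p alone the count was 6 to 17 under the settings that keep all samples, the replicate block aside. It was 12 with trend and robust variance (where Snap25, Vamp4, Cadps, Cadps2, Rims2 and Nsf joined and Sytl2 was lost). With the 12 arrays as separate samples it was 17, where Snap25, Vamp4, Cadps, Cadps2, Rims2, Rab3c, Rab27a, Rph3al, Nsf and Ptprn joined. Most calls were lost when either normal sample was left out. In the homozygous tumor against normal it was 4 with the 12 arrays as separate samples and 2 with the pair as a random block. Between genotypes it was 6 and 0 in these fits. For both comparisons it was 0 in the other limma fits, the replicate block aside.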
